A study of Raphidocelis subcapitata with 493 samples.

Results

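The PFNA concentration series comprised 24 of the 493 libraries of a study that exposed the freshwater green alga Raphidocelis subcapitata to per- and polyfluoroalkyl substances. They were the 21 libraries labelled PFNA, 3 at each of 7 nominal concentrations (0.1, 0.3, 1, 3, 10, 32 and 100 µM), and the 3 DMSO control libraries of the same exposure. Because these libraries were shallow, analysis was limited to genes with a mean level of at least 20 CPM over the 24 libraries, where CPM is the count of a gene scaled to a fixed library total, and this kept 7205 of 13429 gene identifiers. The last gene kept had a mean of 20.00141 CPM and the first left out 19.99998 CPM. The question named in the series title is that of points of departure, meaning the lowest concentrations that alter expression.

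PFNA is perfluorononanoic acid, a carboxylic acid whose carbon chain carries fluorine in place of hydrogen. Its fluorinated tail repels both water and oil while its acid group is charged in water, so it acts as a surfactant, and the carbon-fluorine bonds make it very resistant to breakdown. Acids of this family with longer chains generally bind more strongly to proteins and membranes. Raphidocelis subcapitata is a single-celled, crescent-shaped alga that is a standard species in growth inhibition tests, because as a photosynthetic primary producer it stands at the base of freshwater food webs.

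All cultures were in exponential growth when exposed, were kept under constant light in a mineral medium in sealed deep-well plates, and were sampled after 24 h. Every well held 0.33% solvent, controls included. Either DMSO or methanol served as solvent, and the labels do not say which was used for PFNA, so if PFNA was dissolved in methanol, the solvent and the compound cannot be told apart in comparisons with the DMSO control. Comparisons among PFNA concentrations do not use that control. The step labelled 3 µM in the libraries has a slightly higher nominal value in the dilution protocol, and the libraries' label is used here. RNA came from pooled homogenates and was read with a 3' tag kit, which sequences a fragment near the polyadenylated end of each transcript. The labels number the libraries P1 to P3 without saying whether each is a culture of its own, so a p-value refers to the spread among the libraries at hand, and that spread may be technical. The gene identifiers come without names, so no function is given for any gene, and no more than 2 that rose and 2 that fell are named.

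Library totals ran from 280637 to 488295 counts with a median of 361089, so 20 CPM corresponded to 7.22 counts in the median library. Totals tended to be lower at the higher concentrations. The 3 libraries at 1 µM held 371768 to 488295 counts, those at 32 µM held 280637 to 337252 and those at 100 µM held 290166 to 375969, against 304850 to 485089 in the control. Between 10538 and 11100 genes had at least a single count, with 10995 to 11100 in the control and 10538 to 10720 at 100 µM. The part of depth in the results below was not tested. In 24 of 24 replicate pairs the difference exceeded counting noise (chi-square over its degrees of freedom of 1.76 to 3.38), so no library was counted as a duplicate.

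The first principal component of log2 CPM held 9.86% of the variance and set the 2 highest concentrations partly apart. On it the control libraries lay at -1.2, -7.6 and -9.4, the 10 µM libraries at -8.5, -3.7 and 8.4, the 32 µM libraries at -2.4, 3.1 and 20.7, and the 100 µM libraries at 11.5, 11.6 and 39.6. The 100 µM libraries thus lay above every control library, while the 32 µM libraries were spread from within the low concentrations to above 2 of the 3 libraries at 100 µM. At every PFNA concentration the library numbered P1 lay lowest, and P3 lay highest at each of them but 1 µM. At 0.1 µM, for example, P1, P2 and P3 lay at -8.5, -2.4 and -1.1. In the control P1 lay highest and P3 lowest. Libraries P3 at 100 µM, P3 at 32 µM and P1 of the control stood apart, with median correlations with all other libraries of 0.86, 0.876 and 0.886. The counts, the trend and the 10th percentile of benchmarks are given below with and without each of them where this moved the value by over 1.5 times.

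**Figure D1:**
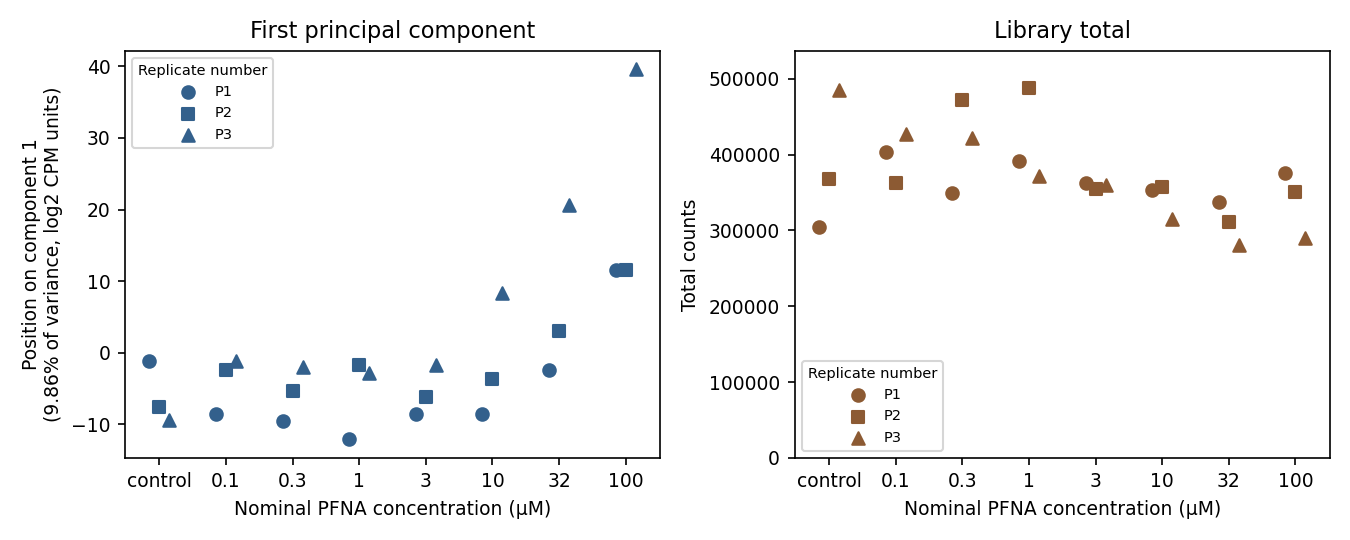
Position of each library on the first principal component of log2 CPM (left) and its total count (right), against nominal PFNA concentration in µM. Each point is a library and its shape gives the replicate number. The 100 µM libraries lie at 11.5, 11.6 and 39.6, above all 3 control libraries, and the lowest total, 280637 counts, belongs to P3 at 32 µM.

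Expression differed from the control in few genes, and in edgeR's quasi-likelihood test it did so at the 2 highest concentrations. A gene is called where its Benjamini-Hochberg adjusted p over the 7205 genes is under 0.05. At 100 µM, 96 genes were called (1.33% of those tested), 48 higher (0.666%) and 48 lower (0.666%) than in the control. At 32 µM, 23 genes were called (0.319%), 14 higher (0.194%) and 9 lower (0.125%). At 0.1, 0.3, 1, 3 and 10 µM no gene was called by edgeR or by DESeq2, and 386, 354, 364, 392 and 408 genes had an unadjusted p under 0.05. These were 5.36%, 4.91%, 5.05%, 5.44% and 5.66% of the genes, beside 8.91% at 32 µM and 13% at 100 µM. Some other settings called 1 or 2 genes at 1 or 10 µM. RNA was taken from whole cultures, so a change within every cell and a change in the share of cells in a given state cannot be told apart.

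The calls at 32 µM depended on single libraries. Their number fell from 23 to 13, 11 and 8 without control library P1, P2 and P3, and to 13 and 14 without P1 and P2 at 32 µM, and it was 19 without P3 at 32 µM. Without all libraries numbered P2 it was 0 (edgeR), with only 2 libraries left in each group. The 96 calls at 100 µM became 52 without control library P3, while they were 95 without control library P1 and 74 without P3 at 100 µM. The even split between higher and lower was also not fixed: 60.8% of the calls were higher without P3 at 100 µM, 40.3% of 77 without P1 at 100 µM, and 69.2% of 52 without all libraries numbered P3. With each replicate number left out in turn, 14 of the 48 rises and 9 of the 48 falls were called every time, and all 96 kept their direction. DESeq2 called 36 genes at 32 µM and 100 at 100 µM, and edgeR called 47 and 157 when the PFTrDA libraries of the same exposure shared the fit.

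The called changes at 100 µM were moderate in size. The median size was 1.02 on the log2 scale, and 50 of the 96 genes changed at least 2-fold. The range went from a rise of 2.99 to a fall of -2.33, and the smallest called change was 0.48. Over all 7205 genes the median size of the log2 change was 0.29 at 100 µM and 0.26 at 32 µM, against 0.22 to 0.23 at the lower concentrations. The signed median over all genes was between -0.01 and 0 at each concentration.

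How small a change could be called followed from the level of the gene. The half-width of the 95% interval of the log2 change at 100 µM had a median of 0.94 in the 3091 genes with 20 to 50 CPM, and 10 of them were called (0.324%), none with a change under 1.33. In the 2053 genes of 50 to 100 CPM the half-width was 0.66, and 19 were called (0.925%). In the 1157 genes of 100 to 200 CPM it was 0.49, and 21 were called (1.82%). In the 904 genes at or above 200 CPM it was 0.35, and 46 were called (5.09%), down to a change of 0.48. The smallest and most abundant class thus held 46 of the 96 calls. The genes that rose had a median level of 180 CPM and those that fell 209 CPM, against 58.5 CPM in all tested genes. A gene of low level could have changed by less than 1.33 on the log2 scale without being called at this depth.

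The named genes are those with the largest changes at 100 µM among the 39 rises and 28 falls that were also called in the trend over concentration and averaged at least 10 counts a library in the control and at 100 µM. Their levels are given for P1, P2 and P3 in that order.

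Rsub_01749 had 52.5, 35.4 and 26.8 CPM in the control and 269, 396 and 210 CPM at 100 µM. In between it was at 45.3, 78.3 and 60.2 CPM at 10 µM and at 80.1, 106 and 32.1 CPM at 32 µM. At 0.1 to 3 µM its levels ran from 0 to 60.2 CPM, the 0 being a library at 0.1 µM with no count of this gene. The 100 µM libraries thus lay above all others, and those at 32 µM overlapped the control through P3. The change against the control was 2.99 ± 0.36 at 100 µM (log2, SE, n = 3 against 3, edgeR adjusted p = 5.7e-09), while at 32 µM it was 0.98 ± 0.41 (adjusted p = 0.44).

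Rsub_06734 had 65.6, 32.7 and 55.7 CPM in the control, 105, 81.1 and 72.9 CPM at 10 µM, 196, 141 and 135 CPM at 32 µM and 500, 422 and 258 CPM at 100 µM. Its groups from the control to 100 µM did not overlap at these 4 steps, although the libraries at 0.1 µM (76.9, 88.3 and 70.2 CPM) were as high as those at 10 µM and those at 3 µM (49.6, 33.8 and 41.7 CPM) within the range of the control. Its change was 1.62 ± 0.28 at 32 µM (log2, SE, edgeR adjusted p = 0.00081) and 2.96 ± 0.26 at 100 µM (adjusted p = 6.7e-16). It ranked first by p-value at both concentrations.

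Rsub_11220 fell from 197, 245 and 266 CPM in the control to 101, 96.3 and 96.2 CPM at 32 µM and 42.6, 42.8 and 55.1 CPM at 100 µM. At 10 µM it was at 175, 137 and 79.2 CPM, below every control library but overlapping the 32 µM group through P3. The log2 change was -1.28 ± 0.24 at 32 µM (SE, edgeR adjusted p = 0.0013) and -2.33 ± 0.27 at 100 µM (adjusted p = 2e-10). At 10 µM it was -0.86 ± 0.23, which did not pass (adjusted p = 0.29).

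Rsub_08333 fell at the highest concentration. Its control libraries were at 95.1, 136 and 111 CPM, the 32 µM libraries at 122, 80.2 and 103 CPM and the 100 µM libraries at 29.3, 31.4 and 44.8 CPM, which were 11 to 13 counts each. All libraries at 0.1 to 32 µM lay between 62.3 and 152 CPM, above every library at 100 µM. The log2 change was -0.17 ± 0.27 at 32 µM (SE, edgeR adjusted p = 0.91) and -1.7 ± 0.31 at 100 µM (adjusted p = 0.00015).

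**Figure D2:**
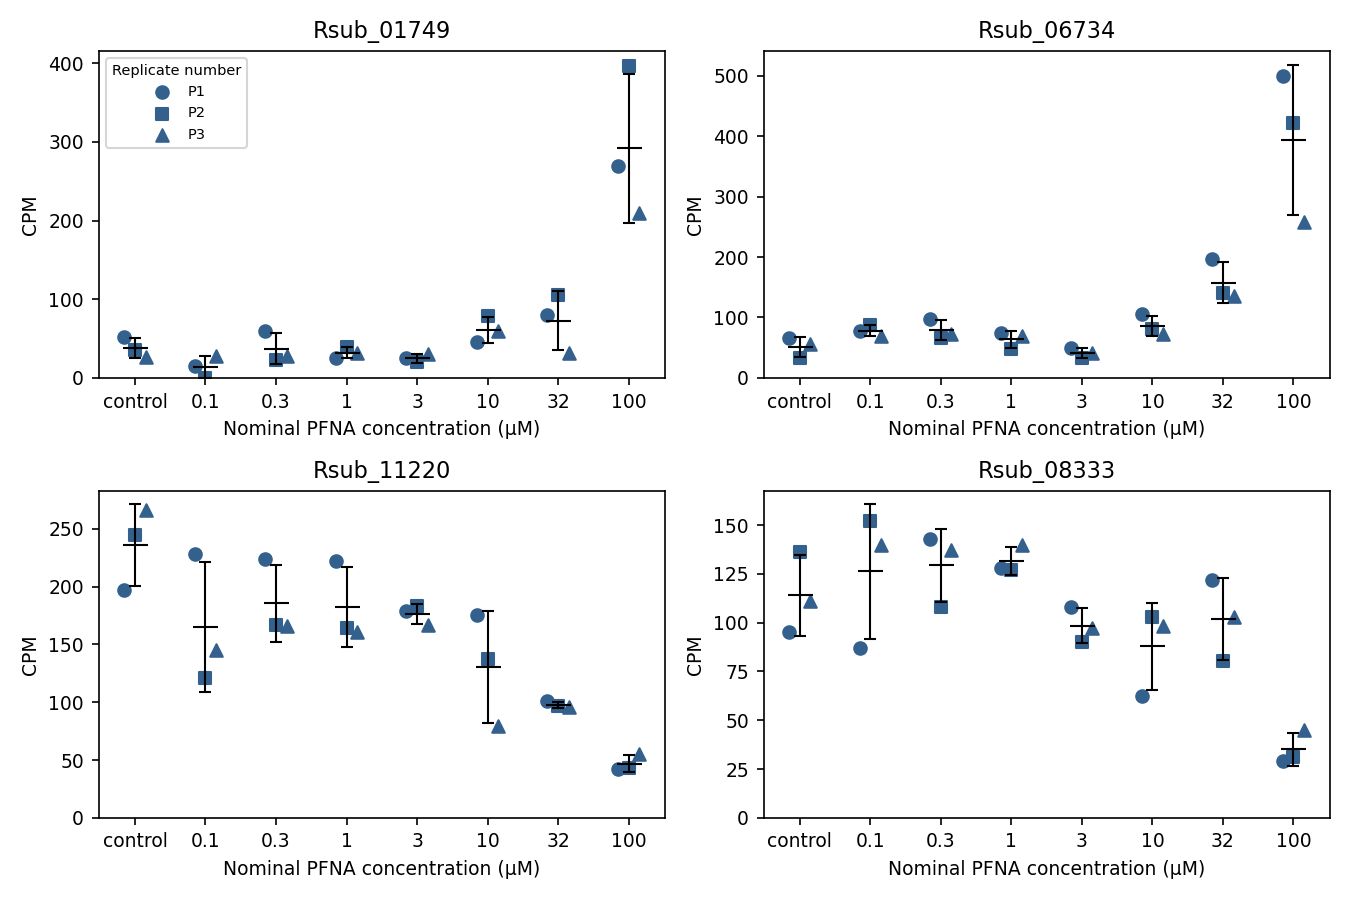
Level of the 4 named genes in CPM in each library, against nominal PFNA concentration in µM. Points are libraries with the shape giving the replicate number, and the horizontal mark and bar are the mean and SD of the 3 libraries. Rsub_01749 and Rsub_08333 leave the range of the lower concentrations at 100 µM, where they reach 210 to 396 CPM and 29.3 to 44.8 CPM, while Rsub_06734 and Rsub_11220 have already left the control range at 32 µM.

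Taken as lists, the genes called at 100 µM moved farther from the control from 3 µM upward, while single members such as Rsub_08333 left it at 100 µM. For the 48 that rose, the median log2 change against the control was 0.21, 0.23, 0.28, 0.29, 0.43, 0.63 and 1.06 from 0.1 to 100 µM. For the 48 that fell, it was -0.27, -0.14, -0.17, -0.22, -0.31, -0.44 and -0.9. At 32 µM all 48 rises had a positive change and 8 were called higher, and all 48 falls had a negative change and 6 were called lower, beside 50.2% positive, 0.194% called higher and 0.125% called lower over all tested genes. The genes were chosen by their difference from these same control libraries, so the values at lower concentrations share the control's chance values and lean in the direction of the choice. Their values at 100 µM lean most, since these made the choice. The 14 genes called higher at 32 µM had medians of 0.94 at 32 µM and 0.91 at 100 µM. The 9 called lower at 32 µM had -0.72 and -0.75, and both of these lists were chosen by their value at 32 µM. Genes whose 3 libraries at 100 µM did not overlap the control made up 45 of the 48 rises and 47 of the 48 falls, beside 7.16% (higher) and 9.02% (lower) of all tested genes. Of the rises, 12 lay above all 21 other libraries, and of the falls, 15 lay below all of them, beside 0.375% and 0.555% of all tested genes. The genes were chosen by the difference between the 100 µM and control libraries, so these counts of genes without overlap follow in part from the choice.

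**Figure D3:**
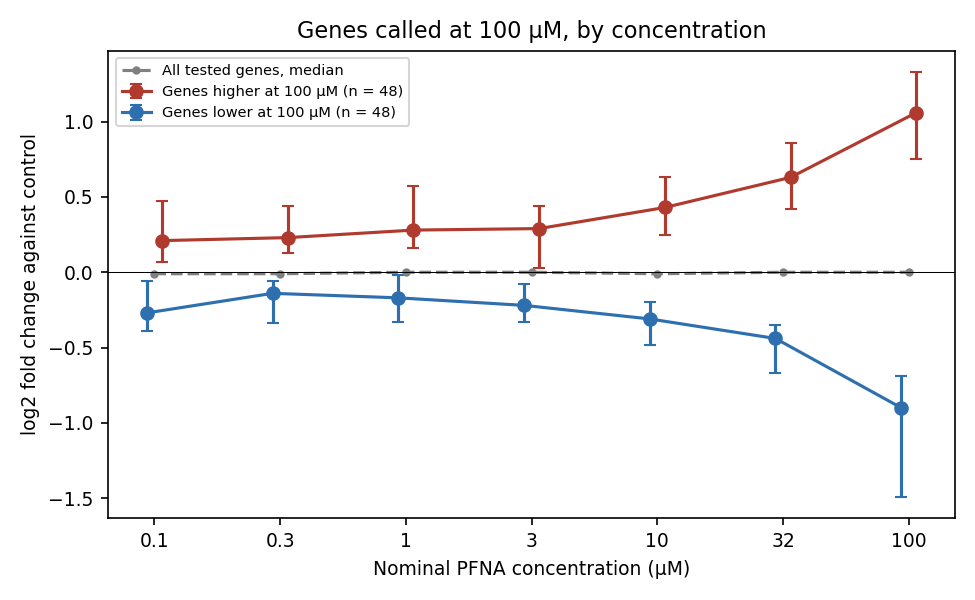
Median log2 fold change against the control, with bars from the 25th to the 75th percentile over genes, of the 48 genes called higher and the 48 called lower at 100 µM, by nominal concentration in µM. The dashed line is the median of all tested genes. Medians go from 0.21 to 1.06 and from -0.27 to -0.9, and all contrasts share the 3 control libraries. The largest step is between 32 and 100 µM, but the genes were chosen by their value at 100 µM, which tends to enlarge it.

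The contrast of 32 with 0.1 µM shares no library with that of 100 µM and the control, and the same genes can be read in it. The 48 rises had a median log2 change of 0.31, and 45 were positive, against a median of 0.01 and 51.1% positive over all tested genes. The 48 falls had a median of -0.25, and 42 were negative. Called in this contrast were 7 genes (0.0972% of those tested), 2 higher (0.0278%) and 5 lower (0.0694%). Among them were 2 of the rises, including Rsub_01749 with 2.28 ± 0.47 (log2, SE, edgeR adjusted p = 0.0074), and 2 of the falls. This count was 11 in DESeq2 and 3 or 4 without each replicate number. The sizes at 32 µM were therefore smaller against 0.1 µM than against the control, where the medians were 0.63 and -0.44.

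The difference between the ends of the series did not need the control either. Between 100 and 0.1 µM, 70 genes were called (0.972%), 34 higher (0.472%) and 36 lower (0.5%) at 100 µM, and 23 of the 48 rises and 18 of the 48 falls were among them. This contrast shares the 100 µM libraries that chose the rises, the falls and the named genes, so their values in it are a description. Rsub_01749 differed by 4.29 ± 0.41 (log2, SE, edgeR adjusted p = 1.9e-12), Rsub_06734 by 2.37 ± 0.25 (adjusted p = 1.9e-12), Rsub_11220 by -1.79 ± 0.28 (adjusted p = 2.6e-06) and Rsub_08333 by -1.82 ± 0.31 (adjusted p = 2.9e-05). Scaled by library totals alone, 38.5% of the calls were higher in place of 48.6%. With 1 replicate number left out, 33 to 39 genes were called.

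Single steps were harder to see. Between 32 and 10 µM no gene was called by edgeR or DESeq2, with 342 genes at an unadjusted p under 0.05. Between 100 and 32 µM, 3 genes were called (0.0416%), and they were Rsub_01749 with 2.01 ± 0.33 (log2, SE, edgeR adjusted p = 3e-04), Rsub_06734 with 1.34 ± 0.23 (adjusted p = 3e-04) and Rsub_08333 with -1.53 ± 0.33 (adjusted p = 0.02). This count was 1 without P1 at 100 µM, 7 without P3 at 100 µM and 5 without P2 at 32 µM. All 48 falls had a negative value and 46 of the 48 rises a positive one in this step, with medians of -0.44 and 0.37, but the step shares the 100 µM libraries that chose the genes. For Rsub_11220 the step was -1.05 ± 0.3 (adjusted p = 0.25).

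A test of a linear trend over ranked concentration, in which the control has rank 0, called 135 genes (1.87%), 73 rising (1.01%) and 62 falling (0.861%). Without the control libraries it called 120 of 7191 genes (1.67%), 66 rising and 54 falling. Of the genes called at 100 µM, 41 rises and 30 falls were also called in the trend. The control and 100 µM libraries that chose these genes are the ends of the trend, so the 2 tests are not independent. The slope, as log2 change per concentration step, was 0.5 ± 0.08 for Rsub_01749 (SE, edgeR adjusted p = 0.00056), 0.38 ± 0.06 for Rsub_06734 (adjusted p = 0.00072), -0.22 ± 0.03 for Rsub_11220 (adjusted p = 1.3e-06) and -0.15 ± 0.03 for Rsub_08333 (adjusted p = 0.0037). The trend of Rsub_08333 was no longer called without replicate number 2 (adjusted p = 0.145). The trend called 75 genes without P1 at 100 µM and 83 without P3 at 100 µM (76 and 63 where the controls were left out too), and 52 to 85 without each replicate number in turn.

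Concentrations at which single genes left their starting level were read from curves fitted to the 117 genes with a called trend and a change of at least 1.5-fold. For each gene a linear, a power, a saturating exponential and a Hill curve were fitted to log2 CPM, and the benchmark concentration is where the best of them had moved by 1 residual SD. All 117 genes gave one, 64 that rose and 53 that fell. Its median was 9.92 µM, 10.3 µM for genes that rose and 9.29 µM for genes that fell, with quartiles of 4.76 and 27.7 µM over all 117 genes. Most genes had it above 1 µM, with 47 at 1 to 10 µM, 32 at 10 to 32 µM and 24 at 32 to 100 µM. A further 10 lay at 0.1 to 1 µM, and 4 lay below 0.1 µM, the lowest concentration tested, where a benchmark is an extrapolation. The saturating exponential was kept for 74 genes, the line for 40, the Hill curve for 3 and the power curve for 0. The genes that rose made up 18 of the 24 with a benchmark above 32 µM.

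Among the named genes, the benchmark was 8.09 µM for Rsub_11220, 9.05 µM for Rsub_06734, 19.2 µM for Rsub_08333 and 23.8 µM for Rsub_01749. The first pair, with the lower benchmarks, was also called at 32 µM, and the second pair was called against the control at 100 µM alone.

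As a point of departure for the whole response, the 10th percentile of the benchmarks was 0.792 µM, with 12 genes at or below it. The 25th lowest benchmark was 3.52 µM. No gene was called against the control at 0.3, 1, 3 or 10 µM, so the percentile lay below the concentrations at which single genes passed a test. The percentile rests on few genes at the low end. It was 3.84 µM (91 genes) without the control libraries and 6.73 µM (92 genes) with a benchmark response of 2 SD. With replicate number 1, 2 or 3 left out it was 1.2, 1.42 or 0.917 µM, each above the value from all libraries. It was 2.34 µM without control library P1, 1.44 µM without P3 at 32 µM and 0.926 µM without P3 at 100 µM. No interval is given for it.

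**Figure D4:**
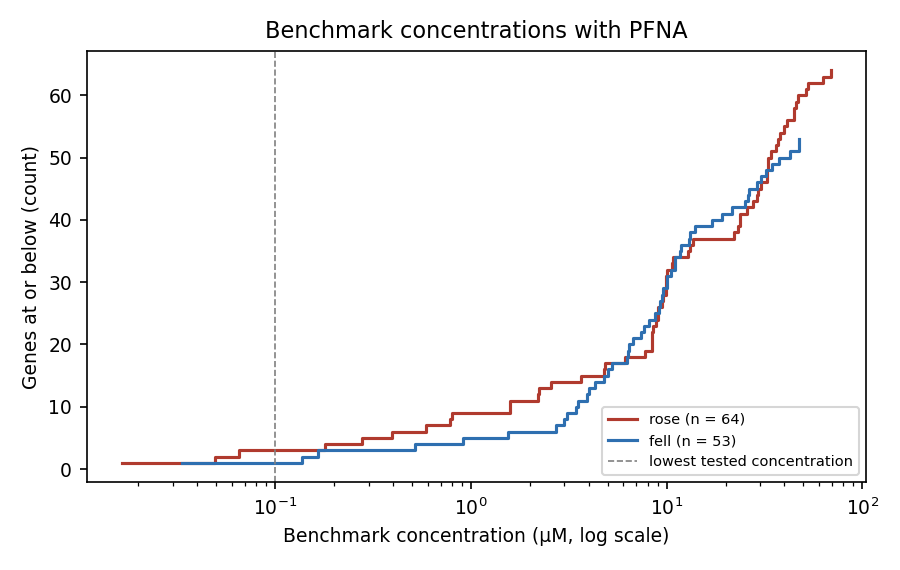
Number of genes with a benchmark concentration at or below the value on the horizontal axis (µM, log scale), for the 64 genes that rose and the 53 that fell. The dashed line marks 0.1 µM, the lowest concentration tested. Both curves climb most steeply near 10 µM, and 4 genes lie left of the line.

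Other perfluorinated carboxylic acids were tested in the same study at matched concentrations, PFOA with a shorter and PFUdA with a longer chain. Each was exposed beside its own 3 DMSO controls, so the groups compared share no library with the PFNA series, although both exposures entered a joint fit. Their libraries were deeper, with median totals of 1070342 counts (PFOA exposure) and 751959.5 counts (PFUdA exposure). The median half-width of the 95% interval at 100 µM was 0.5 and 0.59 on the log2 scale against 0.71 with PFNA. The last value is over the 7205 genes of the PFNA fit. The other 2 are over the 6471 and 6308 genes that passed the filter in both exposures, so the sets of genes differ as well as the depth. Numbers of calls are therefore not compared between acids. In genes that passed the level filter in both exposures, 169 of 6471 were called with PFOA at 100 µM (2.61%), 97 higher and 72 lower. With PFUdA, 256 of 6308 were called (4.06%), 98 higher and 158 lower. These counts were unstable. Without replicate number 1, 2 and 3 they were 77, 19 and 556 with PFOA and 146, 114 and 117 with PFUdA (edgeR). Without control library P1 of the PFOA exposure, 54 were called with PFOA. The lists, shares and scores below are from all libraries unless stated otherwise.

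Part of the genes called with PFNA were called in the same direction with the other acids. Of 44 genes higher with PFNA, 19 were also called higher with PFOA, which is 43.2% of the PFNA list and 19.6% of the PFOA list, where 1.5% of all genes tested were called higher with PFOA. Of 47 genes higher with PFNA, 22 were called higher with PFUdA, 46.8% of the PFNA list and 22.4% of the PFUdA list, against 1.55% of all genes tested. Among genes that fell, 9 of 47 were shared with PFOA (19.1% of the PFNA list and 12.5% of the PFOA list, against 1.11% of all genes) and 10 of 47 with PFUdA (21.3% and 6.33%, against 2.5%). With all 3 acids 10 genes were called higher and 4 lower. No gene was called in opposite directions at 100 µM with PFNA and either acid. At the shares over all genes given above, few such genes would be met in lists this short. Their absence therefore does not show that the acids share a direction. The count of shared genes was smaller without single replicate numbers, down to 5 higher and 1 lower shared with PFOA, both without replicate number 2. Under all alternatives tried, genes shared with PFOA numbered 5 to 31 higher and 1 to 23 lower, and those shared with PFUdA 10 to 28 higher and 5 to 19 lower. Of single libraries, P1 at 100 µM lowered the higher genes shared with PFOA to 12 when left out, and control library P2 those shared with PFUdA to 13. Genes called with PFNA were also more abundant than others, as given above, and the part of abundance in these shares was not tested.

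The changes themselves can be set side by side. The rises with PFNA had a median log2 change of 0.55 with PFOA, with 43 of 44 positive, and of 0.49 with PFUdA, with 41 of 47 positive. The falls had a median of -0.26 with PFOA, with 38 of 47 negative, and of -0.28 with PFUdA, with 34 of 47 negative. Because the genes were chosen for their change with PFNA, their larger median with PFNA is no sign of a stronger response to it.

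**Figure D5:**
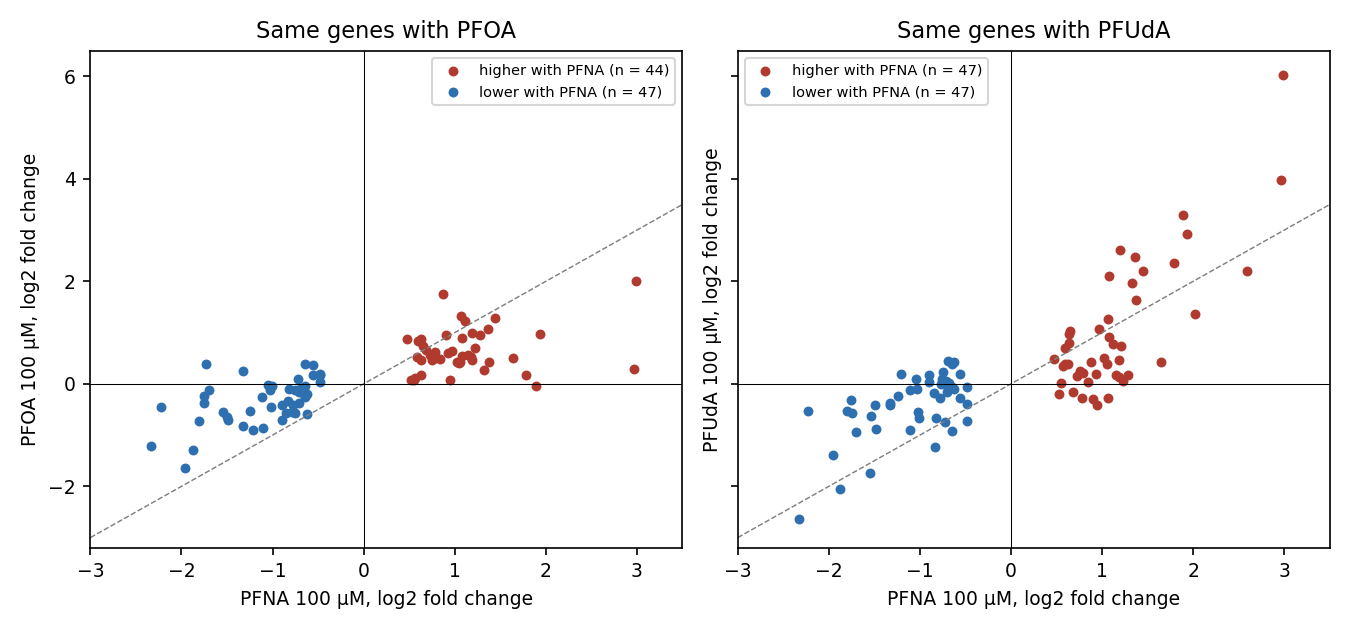
Log2 fold change at 100 µM with PFOA (left) and PFUdA (right) against that with PFNA, for the genes called with PFNA at 100 µM that were tested in both exposures. Each point is a gene, the dashed line marks equal change, and each acid is compared with its own 3 control libraries. With PFOA 43 of 44 and with PFUdA 41 of 47 of the genes higher with PFNA lie above 0, 38 of 47 and 34 of 47 of the lower ones lie below 0, and Rsub_01749 and Rsub_06734 at the right edge reach 6.02 and 3.98 with PFUdA.

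The lists called with the other acids can also be read in each PFNA library. The PFNA libraries did not enter the changes that were tested for these lists. They did enter the level filter and the joint fit that gave the spread. The score used is the mean log2 level of the genes higher with the other acid minus that of the genes lower with it, set to a mean of 0 over the 3 PFNA controls. For the 97 and 72 genes of PFOA it was 0.02, 0.08 and -0.09 in the control, 0.33, 0.42 and 0.42 at 10 µM, 0.59, 0.55 and 0.49 at 32 µM and 0.77, 0.83 and 0.63 at 100 µM. Every PFNA library lay above the 3 controls, with 0.16 the lowest, also at 0.1 µM, where the score was 0.18, 0.36 and 0.4. For the 98 and 158 genes of PFUdA the control was at 0.04, -0.08 and 0.04 and 0.1 µM at -0.01, 0.04 and 0.14, so these overlapped. It was 0.13, 0.21 and 0.13 at 10 µM, 0.26, 0.48 and 0.36 at 32 µM and 0.69, 0.74 and 0.58 at 100 µM. Both scores in the libraries at 10, 32 and 100 µM lay in that order without overlap.

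Whether the change differed between acids was tested gene by gene as the difference of the 2 changes, each against its own control, in 4 contrasts adjusted separately over genes. Between PFNA and PFOA, 8 genes of 6471 were called at 32 µM (0.124%) and 24 at 100 µM (0.371%). Of the 24, 19 had a lower (0.294%) and 5 a higher value (0.0773%) with PFNA. Between PFNA and PFUdA, 41 genes of 6308 were called at 32 µM (0.65%) and 59 at 100 µM (0.935%), of which 38 had the higher (0.602%) and 21 the lower value (0.333%) with PFNA. Scaled by library totals alone, 52.2% in place of 64.4% of these were higher with PFNA. The median half-width of the 95% interval of a difference was 0.83 and 0.82 against PFOA and 0.91 and 0.89 against PFUdA on the log2 scale. These intervals are not adjusted for the number of genes, so most genes needed a larger difference to be called. The called differences had a median size of 2.03 and 1.54 against PFOA and of 1.45 and 1.3 against PFUdA at 32 and 100 µM. A difference of -1.59 from PFOA at 100 µM, that of Rsub_08333, was not called. A gene that was not called is not shown to respond alike. The acids were in different exposures, so in a called gene the acid and the exposure cannot be told apart.

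The counts of differing genes turned on single libraries. Against PFOA at 100 µM the count was 156 without control library P3 of the PFOA exposure, 14 and 13 without its P1 and P2, and 17 to 25 without each control, 100 µM or 32 µM library of the PFNA exposure. At 32 µM against PFOA it was 59 without that P3, 5 without control library P2 of the PFNA exposure, 1 or 2 without any other control library of either exposure, 1 without P2 at 32 µM of PFNA and 2 without P3 there. Against PFUdA at 100 µM it was 37 to 61 without single control libraries, of which P1 and P2 of the PFUdA exposure gave 38 and 37, and it was 37 without P3 at 100 µM of PFNA. At 32 µM against PFUdA it was 29 to 36 without single control libraries and 26 without P1 at 32 µM of PFNA. Genes called with PFNA at 100 µM made up 1 of the 8, 7 of the 24, 7 of the 41 and 13 of the 59, beside 1.33% of all genes tested with PFNA. Of the 47 genes higher with PFNA at 100 µM that were tested against PFUdA, 7 had a called lower change with PFNA at 32 µM (background 0.333%) and 0 a higher one (background 0.317%), while at 100 µM 3 were lower (background 0.333%) and 5 higher (background 0.602%). Of the 47 lower ones, 5 had a lower change with PFNA than with PFUdA at 100 µM in that test (background 0.333%), and 3 of 47 a lower one than with PFOA (background 0.294%). These genes were chosen by the PFNA change that enters the difference, so the counts are a description. DESeq2 called 13 and 37 genes against PFOA and 54 and 98 against PFUdA at 32 and 100 µM.

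Rsub_06734 had the lowest p in both contrasts with PFOA. With PFOA it was at 79.8, 94.8 and 89.5 CPM in the control and 93.1, 99.7 and 130 CPM at 100 µM, a log2 change of 0.29 ± 0.21 (SE, edgeR adjusted p = 0.55). With PFUdA it went from 77.9, 43.2 and 68 CPM to 984, 1010 and 976 CPM, a change of 3.98 ± 0.2 (adjusted p = 1.9e-30). PFNA, with 2.96, lay in between. The change with PFNA exceeded that with PFOA by 2.68 ± 0.33 at 100 µM (edgeR adjusted p = 2.6e-08) and by 1.93 ± 0.35 at 32 µM (adjusted p = 0.0024), though the latter was lost without replicate number 1 or 2 (adjusted p of 0.215 and 0.324). Against PFUdA it was lower by a log2 difference of -2.11 ± 0.34 at 32 µM (adjusted p = 2.7e-05), while at 100 µM the difference of -1 (95% interval -1.63 to -0.36) did not pass after adjustment (adjusted p = 0.12).

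Rsub_01749 rose with all 3 acids. With PFOA it went from 16.9, 20.6 and 36.5 CPM to 101, 111 and 80.1 CPM at 100 µM, a log2 change of 2.01 ± 0.32 (SE, edgeR adjusted p = 1.5e-05). With PFUdA it went from 8.65, 23.9 and 31.6 CPM to 1240, 1220 and 1960 CPM, a change of 6.02 ± 0.4 (adjusted p = 2.3e-13). The groups did not overlap in any of the 3 exposures. The change with PFNA differed from that with PFUdA by -4.55 ± 0.72 at 32 µM (edgeR adjusted p = 0.00035) and by -3 ± 0.66 at 100 µM (adjusted p = 0.015). The latter was not called without replicate number 1, 2 or 3 (adjusted p of 0.165, 0.0604 and 0.0972) nor without control library P1 of the PFNA exposure (adjusted p = 0.0827). From PFOA it differed by 0.99 at 100 µM (95% interval 0 to 1.97, adjusted p = 0.46).

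Rsub_11220 fell with all 3 acids. With PFOA it went from 282, 294 and 157 CPM to 141, 88.1 and 77 CPM at 100 µM, a log2 change of -1.22 ± 0.25 (SE, edgeR adjusted p = 0.0018). With PFUdA it went from 235, 217 and 142 CPM to 60, 29.7 and 8.74 CPM, a change of -2.64 ± 0.41 (adjusted p = 3.1e-05). Its change with PFNA was not called as different from either at 100 µM, with differences of -1.12 from PFOA (95% interval -1.99 to -0.24, adjusted p = 0.33) and of 0.32 from PFUdA (95% interval -0.95 to 1.6, adjusted p = 0.91).

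Rsub_08333 was called with PFNA alone among the 3 acids, which does not show that they differ. With PFOA it was at 31.9, 48.6 and 54.8 CPM in the control and 28.9, 56 and 36.3 CPM at 100 µM, with overlapping groups and a log2 change of -0.12 ± 0.27 (SE, edgeR adjusted p = 0.9). With PFUdA it was at 29.4, 34.1 and 36.4 CPM and then at 9.24, 23.1 and 20 CPM, a change of -0.94 ± 0.34 (adjusted p = 0.12). The difference between PFNA and PFOA at 100 µM was -1.59 (95% interval -2.44 to -0.74, adjusted p = 0.078), and that between PFNA and PFUdA was -0.74 (95% interval -1.71 to 0.23, adjusted p = 0.58). The first of these was called in DESeq2 (adjusted p = 0.0386), with no filter (0.0345), without replicate number 3 (0.0399) and without control library P3 of the PFOA exposure (0.0183).

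PFTrDA, with a still longer chain, was tested in the same exposure as PFNA and shares its 3 control libraries, so their changes against the control are given without a comparison. Its highest concentration was 5 µM, and 1 µM was the highest that both compounds had. At 1 µM a direct contrast of the libraries called 1 of 7250 genes (0.0138%), with 346 at an unadjusted p under 0.05 and a median half-width of 0.66. That gene was higher with PFNA, by 0.61 on the log2 scale. At 5 µM PFTrDA differed from the control in 7 genes (0.0966%), 6 higher and 1 lower. For Rsub_06734 the log2 change with PFTrDA was 1.5 ± 0.28 at 5 µM (SE, edgeR adjusted p = 0.00072), beside 0.75 ± 0.3 with PFNA at 10 µM (adjusted p = 0.72), at concentrations that do not match.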

How the data were processed

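Raphidocelis subcapitata cultures were exposed to PFNA for 24 h, and polyadenylated RNA was read as 3' tags with random molecular identifiers, per the labels' protocols. The deposited tables hold whole-number counts per gene identifier that the authors made, per the submitters' processing notes, using STAR 2.7.10a, featureCounts 2.0.6, fastp 0.23.2 and SAMtools 1.15.1. Not given in the sources used here are the build, the gene models, the strand setting and any collapsing of reads that carry 1 identifier. Without collapsing, part of each count would be amplification. Overlapping genes and near-identical copies can share reads. Of the 22 tables, 4 were used (PFNA, PFTrDA, PFOA and PFUdA), and 0 columns were left unmapped. The 3 control columns were identical in the PFNA and PFTrDA tables and were counted once.

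Groups were taken from the labels. Tests used edgeR 4.0.16 under R 4.3.3 (TMM scaling, estimateDisp, robust glmQLFit, glmQLFTest, Benjamini-Hochberg over the genes of a fit). All 24 libraries entered a group means model with a common biological coefficient of variation of 0.172. Standard errors were computed from the log2 change and the F statistic. CPM values were computed from library totals. For PFOA and PFUdA, the libraries of both exposures entered a joint fit of genes with a mean of at least 20 CPM in each, and each acid was compared with its own control. Benchmarks used log2 CPM with a prior count of 2, keeping the curve of lowest AIC if it was below that of a constant. The alternatives were RLE size factors, library totals alone, filterByExpr, no filter, a minimum of 50 CPM, DESeq2 1.42.0, the replicate number as a block, other benchmark definitions and leaving out replicates. Counts of shared genes, the steps between high concentrations, 32 against 0.1 µM under the alternatives, and leaving out 32 µM libraries or controls of other exposures were added after seeing the data. The scripts were tested on simulated counts.

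The libraries, the comparisons and the rules were chosen with earlier results of these data known. Named genes are those with the largest rise and fall at 100 µM, 2 each, among genes called both there and in the trend and averaging at least 10 counts a library at 0 and 100 µM. No identifier was paired with a name, so the lists of pathways drawn up for photosynthesis, stress response, lipid metabolism and other processes could not be matched and were not tested, and no sequence is shown. Intervals cover the spread between libraries and not the nominal concentrations, which were not measured in the files used.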

Additional observations from a re-analysis of the deposited data

Results flagged for a closer look

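The change with PFNA differed from the change with a related acid at the same concentration, by edgeR's quasi-likelihood test of the difference itself (Benjamini-Hochberg adjusted p under 0.05). Each acid was in an exposure of its own, so the acid and the exposure cannot be told apart in this difference. Against PFOA, 8 genes differed at 32 µM and 24 at 100 µM. Against PFUdA, 41 differed at 32 µM and 59 at 100 µM. Against its own control the other acid called 2 of these 8 and 15 of these 24 genes (PFOA at 32 and 100 µM), and 33 of these 41 and 37 of these 59 (PFUdA). Over all tested genes these shares were 1.08%, 2.61%, 3.22% and 4.06%. PFNA at the same concentration called 1, 7, 4 and 13 of them, beside 0.319% of all genes at 32 µM and 1.33% at 100 µM. Neither acid called 5, 3, 7 and 12 of them. The changes with the 2 acids had opposite signs, called or not, in 8, 17, 28 and 48 of them. Both changes enter the difference, so genes called in it lean toward genes called with either acid and toward opposite signs. These counts are therefore a description.

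Among the named genes, the log2 change of Rsub_06734 was higher with PFNA than with PFOA by 1.93 at 32 µM and by 2.68 at 100 µM, and lower than with PFUdA at 32 µM, a difference of -2.11. For Rsub_01749 the difference from PFUdA was -4.55 at 32 µM and -3 at 100 µM, the latter not called without replicate number 1, 2 or 3. The groups compared within each acid held 3 libraries each, too few for the test of single distant samples.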

How the results depend on the processing

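No called gene named in the text changed direction under the alternatives tried. Uncalled differences near 0 did, namely that of Rsub_01749 from PFOA at 32 µM (0.14, down to -0.44 without replicate number 3) and that of Rsub_11220 from PFUdA at 100 µM (0.32, and -0.02 without replicate number 3). The majority direction of the calls also turned in several places, of which these are examples. At 32 µM it went from 60.9% to 40% higher without replicate number 1. In the trend it went from 54.1% higher to 46.9% with DESeq2 and 47.6% with library totals alone. In the trend without control it went from 55% to 45.5% with library totals alone. For the difference from PFOA at 32 µM it went from 62.5% to 35.7% with no filter and 29.3% without replicate number 3. Counts of called genes are from edgeR unless named otherwise and are compared with the main counts. RLE size factors called 1 gene at 10 µM, where the main count was 0. With filterByExpr there was 1 call at 10 µM, 1 for the difference from PFOA at 32 µM (8 in the main test) and 3 for PFTrDA at 1 µM (1 in the main test). With no filter, counts were 1 at 1 µM, 2 at 10 µM, 8 between 100 and 32 µM (main 3), 14 and 54 for the difference from PFOA at 32 and 100 µM, 93 for that from PFUdA at 100 µM and 5 for PFTrDA at 1 µM. A minimum of 50 CPM gave 1 at 10 µM, 11 between 32 and 0.1 µM (main 7), 6 between 100 and 32 µM and 4 for PFOA at 32 µM. DESeq2 gave 36 at 32 µM, 11 between 32 and 0.1 µM, 13 and 37 for the difference from PFOA and 98 for that from PFUdA at 100 µM. Fitting the PFTrDA libraries as well gave 47 at 32 µM and 157 at 100 µM. The cause of these shifts was not tested.

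Leaving out replicates, including single control, 100 µM or 32 µM libraries, gave 0 to 24 calls at 32 µM, 51 to 97 at 100 µM, 0 to 2 at 1 µM and 0 to 2 at 10 µM. It gave 33 to 59 between 100 and 0.1 µM, 3 to 8 between 32 and 0.1 µM, 1 to 7 between 100 and 32 µM, 52 to 158 in the trend and 43 to 126 in the trend without control. Differences from PFOA numbered 0 to 59 at 32 µM and 2 to 156 at 100 µM, those from PFUdA 11 to 44 and 10 to 73, and those from PFTrDA 0 to 3. Genes shared with PFOA numbered 5 to 21 (higher) and 1 to 12 (lower), and with PFUdA 10 to 24 and 5 to 11. The 10th percentile of benchmarks was 0.917 to 2.34 µM. It was 6.73 µM at 2 SD, 3.84 µM without controls and 1.11 µM without the 1.5-fold filter, beside 3.52 µM for the 25th lowest gene and 9.92 µM for the median gene. Fits without a replicate number have 2 libraries a group and less power.

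Libraries with the same replicate number shared a weak deviation from their group means, with correlations of -0.108 to 0.119 over 84 pairs and only 4 pairs over 0.1, and the labels do not say what the number marks (the protocol speaks of replicate plates, without tying the numbers to them), so the numbers were not taken to pair the libraries. As a hint from the data, 19 of 24 libraries correlated best with their own number. With the replicate number as a block, 2 genes were called at 1 µM, 2 at 10 µM, 163 at 100 µM, 11 between 32 and 0.1 µM, 1 between 32 and 10 µM and 11 between 100 and 32 µM. With this block, differences from PFOA were 15 and 47, from PFUdA 64 and 132 and from PFTrDA 4, and genes shared at 100 µM were 31 higher and 23 lower with PFOA and 19 lower with PFUdA. All 96 genes called at 100 µM stayed called with the block. Of the uncalled differences of named genes at 100 µM, those of Rsub_06734 from PFUdA (-1.04, adjusted p = 0.0431) and of Rsub_08333 from PFOA (-1.59, adjusted p = 0.0354) were called with the block (edgeR).

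At 20 to 50 CPM a library held few counts of a gene, and only changes above about 1.33 on the log2 scale were called. The groups hold 3 libraries, the concentrations are nominal, and a single control group serves all 7 concentrations.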

Other observations

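Gene identifiers that follow each other in number were called together in a few cases. The genes called with PFNA at 100 µM had 112 neighbours by identifier number among the tested genes, and 8 of these (7.14%) were called themselves, beside 1.33% of all genes tested. They formed 4 adjacent pairs, of which 3 had the same direction. Whether consecutive numbers lie next to each other in the genome is not stated in the files, and neighbouring genes can share reads of a 3' tag where they overlap, so this is a description of the identifiers only.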
